A study of Arabidopsis with 36 samples.

Results

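To ask where in the seedling HY5 acts on transcript levels, the effect of the hy5-215 mutation was compared between roots and shoots at 21 °C. The comparison uses 12 of the 36 libraries of an Arabidopsis RNA-seq experiment, namely all libraries of the wild type Col-0 and of hy5-215 at 21 °C, with 3 replicates of roots and 3 of shoots for each genotype. Seedlings of all 4 groups germinated for 4 days at 21 °C on 1/2 MS medium and stayed at 21 °C for 5 further days, after which roots and shoots were collected separately. Each root replicate is a pool of about 50 roots, and the mutant is represented by a single allele. The 12 libraries at 28 °C, which differ in the temperature of the last 5 days, are used once, after the comparison at 21 °C.

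HY5 is a bZIP transcription factor that promotes development in the light. In the dark it is broken down through the COP1/SPA ubiquitin ligase, and in the light it accumulates and binds G-box and related motifs in front of genes for flavonoid synthesis, chlorophyll synthesis and the photosynthetic apparatus. HY5 is made in shoots and roots, can move from the shoot to the root, and is known to act on nitrate uptake and iron nutrition.

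Levels are given as RPKM, the reads on a gene per kilobase of gene span and per 1 M reads of the library. The 12 libraries hold 68.7 to 84.9 M reads on genes, so that 1 read on a gene of 1 kilobase equals 0.0118 to 0.0146 RPKM. The root effect is the mean of log2(RPKM + 1) in hy5-215 roots minus that in Col-0 roots, the shoot effect is the same for shoots, and the organ difference is the root effect minus the shoot effect. All 3 were tested with limma in 1 fit over 18024 genes averaging 1 RPKM or more, and effects below are on this scale unless RPKM is named. Because of the added 1, the scale understates changes of genes that lie near or below 1 RPKM. The labels do not say that replicates of roots and shoots with the same number came from the same plants. The 12 markers of shoot tissue, among them the leaf polarity gene FIL and the stomatal lineage gene SPCH, were each below 0.25 RPKM in all root libraries, and summed to 65.2 to 66.8 RPKM in Col-0 shoots and 55.3 to 58.1 RPKM in hy5-215 shoots. The 12 markers of root tissue summed to 367 to 375 RPKM in Col-0 roots and 420.1 to 537 RPKM in hy5-215 roots.

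More genes changed strongly in hy5-215 roots than in hy5-215 shoots. An organ difference was called where its adjusted p was under 0.05 and its size above 1. This held for 473 genes (2.62% of those tested), and in 430 of them the root effect was the larger one. At any size, 9200 genes (51%) had a called organ difference, with a median size of 0.31. Among the 473, the root effect was the more negative one in 311 genes (1.73%) and the more positive one in 162 (0.899%). At an adjusted p under 0.05 alone, 8729 genes (48.4%) had a root effect and 9455 (52.5%) a shoot effect, and the median size of the effect over all genes tested was 0.12 in roots and 0.14 in shoots. The counts of effects above 1 lay further apart, with 533 genes (2.96%) in roots and 97 (0.538%) in shoots. Of these genes, 46 changed above 1 in the same direction in both organs.

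The 473 genes fell into 4 classes by the adjusted p of their organ effects. A root effect without a called shoot effect was found in 198 genes (root only), of which 133 were lower and 65 higher in hy5-215 roots. A shoot effect without a called root effect was found in 22 genes (shoot only), of which 18 were higher and 4 lower in hy5-215 shoots. In 119 genes the effects had opposite signs, with 80 lower in roots and higher in shoots and 39 higher in roots and lower in shoots. The other 134 changed in the same direction by unequal amounts. A call missed in 1 organ does not show that the gene did not change there, and a gene without transcript in 1 organ can change only in the other. Of 15430 genes that averaged 1 RPKM or more in each organ, 374 were organ dependent, with 157 root only, 6 shoot only, 108 opposite and 103 in the same direction. The opposite class also depends on how large an effect must be, because the shoot effect of 87 of the 119 genes was within 0.5, and 3 genes (AT1G13609, BHLH100 and VSP2) exceeded 1 in both organs.

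**Figure D1:**
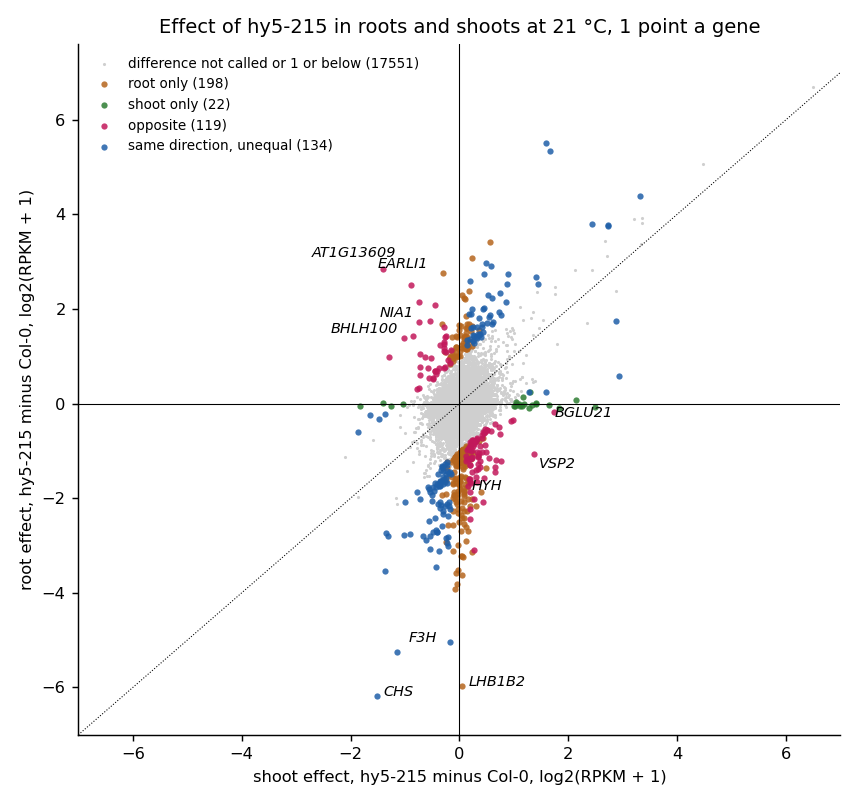
Shoot effect (horizontal) and root effect (vertical) of hy5-215 at 21 °C on the log2(RPKM + 1) scale, with 1 point for each of the 18024 genes tested and the dotted line where both effects are equal. The coloured points are the 473 genes with a called organ difference above 1, which spread mostly along the vertical axis, 198 of them root only.

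HY5 itself was measured first. HY5 transcript was at 27, 24.3 and 24.1 RPKM in the Col-0 roots and 7.7, 8.3 and 7.08 RPKM in the hy5-215 roots. In shoots it was at 4.67, 4.99 and 4.77 RPKM in Col-0 and 5.96, 5.49 and 5.59 RPKM in hy5-215. The transcript thus fell in mutant roots without overlap between the genotypes, as was the case in roots for 54.3% of all genes tested (either direction), and was slightly higher in all mutant shoots, where 64.5% of genes did not overlap, with effects of -1.59 and 0.20 and an organ difference of -1.79 ± 0.08 (SE, adjusted p = 5.73e-09). In Col-0, HY5 was more abundant in roots than in shoots. Its transcript remained present in the mutant, so its level checks the labels of the root libraries but not those of the shoot libraries. HYH, the closest relative of HY5, was at 16.3, 13.8 and 14.3 RPKM in Col-0 roots and 3.4, 3.33 and 3.2 RPKM in hy5-215 roots. In shoots, where HYH was at 23.7, 22.5 and 23.6 RPKM in Col-0 and 26.7, 23.6 and 23.6 RPKM in hy5-215, the genotypes overlapped. The HYH effects were -1.87 and 0.08 (organ difference -1.95 ± 0.08, adjusted p = 4.70e-09).

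Of 28 light signalling genes tested, 5 were organ dependent, all with the more negative effect in roots (1.73% of all genes). In roots 17 had a called decrease and 3 an increase (21.7% and 26.8% of all genes). In shoots 16 fell and 3 rose (29.5% and 22.9% of all genes). BBX20, a B-box cofactor of HY5, fell in roots from 4.57, 3.86 and 3.04 to 0.548, 0.461 and 0.502 RPKM and was at 0.345, 0.35 and 0.293 RPKM in Col-0 shoots. RUP1, a repressor of the UV-B receptor UVR8, fell in both organs, with effects of -1.77 in roots and -0.48 in shoots. SPA4, a subunit of the ligase that removes HY5, likewise fell by 1.3 in roots and had a shoot effect of -0.22. Related genes fell too, with organ differences of 1 or below: the effects of RUP2 were -1.26 and -0.54, those of SPA3 -1.14 and -0.28, and those of HFR1, a bHLH factor of the shade and light response, -1.07 and -0.74. Across the list the median effects were -0.25 in roots and -0.18 in shoots, with medians of 0.02 and -0.02 over all genes tested.

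Nuclear genes of the photosynthetic apparatus fell together in hy5-215 roots, and in the main fit few of them had a called change in hy5-215 shoots. Of the 32 genes tested, 25 had a called decrease and none a called increase in roots, against 21.7% of all genes with a decrease. In shoots 2 fell and 1 rose, against 29.5% and 22.9% of all genes. The median effect was -1.64 in roots and -0.03 in shoots. Scatter between root libraries also enters these shoot calls, because each gene has 1 pooled spread. Shoot libraries of the genotypes did not overlap for 20 of the 32 genes, against 64.5% of all genes. Of the 20, 13 were lower and 7 higher in hy5-215. Under limma voom, 8 genes had a called decrease and 5 a called increase in shoots. Summed over the list, the Col-0 roots held 864, 824 and 688 RPKM and the hy5-215 roots 110.4, 95.9 and 84.0 RPKM. The shoot sums were 121218, 119475 and 118792 RPKM in Col-0 and 112474, 120681 and 121439 RPKM in hy5-215. The summed root levels were thus a small part of the shoot levels in both genotypes. The sums of the genotypes separated completely in roots and overlapped in shoots. The 12 shoot tissue markers summed to 0.270 to 0.360 RPKM in Col-0 roots and 0.366 to 0.388 RPKM in hy5-215 roots. These levels are too near the floor to show a change of shoot tissue in the root libraries, which was not tested. In whole organs, less RNA per cell and fewer cells of a type cannot be told apart.

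The steepest root decrease of the photosynthesis list was that of LHB1B2, a light-harvesting chlorophyll a/b protein of photosystem II. It was at 375, 355 and 314 RPKM in Col-0 roots and 6.74, 4.15 and 3.21 RPKM in hy5-215 roots. In shoots LHB1B2 was at 11760.5, 11310.2 and 11088 RPKM in Col-0 and 10632, 12489.9 and 12314 RPKM in hy5-215. Roots of the mutant had lost nearly all of this transcript while the shoot libraries of both genotypes overlapped, and the organ difference of -6.03 ± 0.23 was the most negative of all genes tested (adjusted p = 1.73e-09, range -6.27 to -5.83 when any 1 library was left out). LHB1B2 belongs to a group of near-identical genes whose reads could be split between copies. Its relatives LHB1B1, LHCB1.1 and LHCB1.2 were at means of 0.344, 1.38 and 2.39 RPKM in Col-0 roots, and none of the 3 had a called root effect. LHCB1.3, also of this group, fell by 2.56 in roots.

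The same pattern was found in both photosystems and in carbon fixation. For photosystem I, PSAF was at 32.3, 29.6 and 27.5 RPKM in Col-0 roots and 2.8, 2.17 and 2.02 RPKM in hy5-215 roots, with an effect of -3.21, and its shoot effect was 0.02 ± 0.07 (SE). PSAD1 fell from 22.1, 17.4 and 14 to 0.81, 0.565 and 0.473 RPKM in roots (effect -3.52), beside a shoot effect of -0.03 ± 0.12 at a mean of 2175 RPKM in Col-0 shoots. Every hy5-215 root library lay far below every Col-0 root library for both genes, while the shoot libraries overlapped. For photosystem II, the oxygen-evolving subunits PSBO1 and PSBP1 had root effects of -1.63 and -3.22 and shoot effects of 0.00 and 0.06. RBCS1A, a small subunit of Rubisco, had a root effect of -3.14 and RCA, the Rubisco activase, one of -2.0, and neither had a called shoot effect. RBCS1A also has close copies, and RBCS1B, RBCS2B and RBCS3B were near or below 1 RPKM in roots. PSAK, another photosystem I subunit, was the only list member in the opposite class. It was at 25.4, 22.4 and 20.9 RPKM in Col-0 roots and 1.96, 1.76 and 1.63 RPKM in mutant roots, and at 1492, 1488 and 1489 and 1709, 1829 and 1842 RPKM in shoots of Col-0 and hy5-215. The rise in shoots of 0.27 was small beside the root effect of -3.1. PSBX, a small photosystem II subunit outside the list, had the same form, with effects of -2.02 and 0.26.

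Many root-only genes that fell had far higher levels in shoots. Of the 133, 71 (53.4%) had shoot levels more than 10 times their root levels, against 6.45% of all genes tested. Of the 65 root-only genes that rose, 26 (40.0%) had root levels more than 10 times their shoot levels, against 7.09% of all genes. Among genes at 1 RPKM or more in each organ, 68 of the 118 that fell were more than 10 times higher in shoots (57.6%, against 2.81% of all such genes), while 4 of the 39 that rose were more than 10 times higher in roots (10.3%, against 2.73%). Most of the 26 were thus under 1 RPKM in shoots and entered the test through their root level.

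Chlorophyll synthesis genes fell in both organs. Of 18 genes tested, 14 had a called decrease in roots and 17 in shoots (21.7% and 29.5% of all genes), with medians of -0.44 and -0.29. The organ difference was called for 4 of them, all more negative in roots. CRD1, a subunit of the cyclase that closes the isocyclic ring of chlorophyll, fell from 17.1, 14.5 and 13.2 to 1.15, 0.924 and 0.83 RPKM in roots. In shoots CRD1 was at 1400.5, 1383 and 1330.1 RPKM in Col-0 and 1154, 1210.3 and 1173 RPKM in hy5-215. The genotypes did not overlap in either organ, and the effects were -3.01 and -0.22 (organ difference -2.8 ± 0.11, adjusted p = 2.00e-09). CHLH, the magnesium chelatase subunit, had effects of -2.41 and -0.45, CHLG, the chlorophyll synthase, -2.37 and -0.22, and PORB, a protochlorophyllide oxidoreductase, -2.07 and -0.35. The list sum fell in shoots from between 3588 and 3673 RPKM to between 2982 and 3041 RPKM, and in roots from between 115 and 135 RPKM to between 67.3 and 72.8 RPKM.

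**Figure D2:**
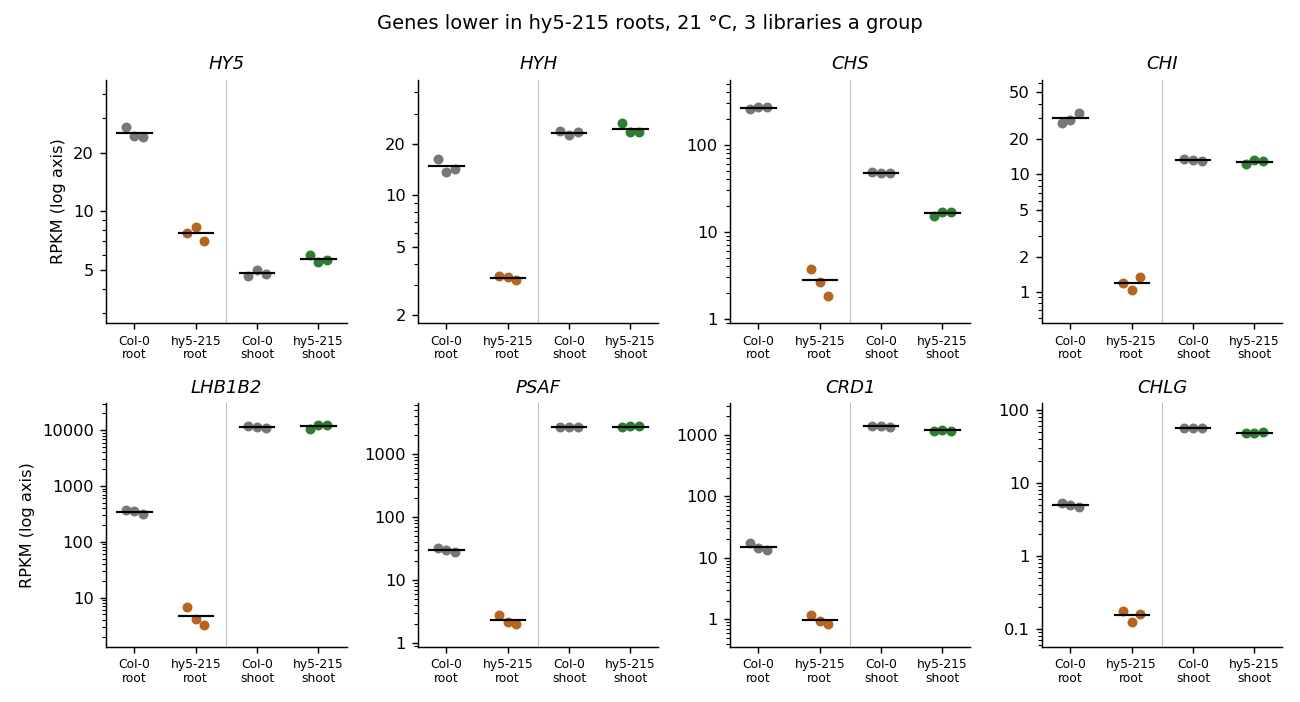
RPKM (log axes) of 8 genes in each of the 12 libraries, with points for libraries and lines for group means. All 8 genes fell in hy5-215 roots, and in shoots CHS fell from 47.5 or more in Col-0 to 17 or less in hy5-215.

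Most of the flavonoid genes tested fell in roots. Of 26 genes listed, 16 were tested. In roots 12 of these had a called decrease and 1 a called increase (21.7% and 26.8% of all genes). In shoots 10 had a called decrease (29.5% of all genes). The medians were -1.95 in roots and -0.20 in shoots, and 9 genes were organ dependent, all more negative in roots. Chalcone synthase, CHS, makes the first flavonoid intermediate. It was at 261, 272 and 269 RPKM in Col-0 roots and 3.78, 2.66 and 1.84 RPKM in hy5-215 roots. In shoots CHS was at 48.6, 48 and 47.5 RPKM in Col-0 and 15, 16.7 and 17 RPKM in hy5-215. The decrease was present in all mutant libraries of both organs and far deeper in roots, with effects of -6.19 and -1.51 (organ difference -4.68 ± 0.18, adjusted p = 2.08e-09). FLS1, the flavonol synthase, behaved alike, at 53.4, 59.8 and 54.8 and 0.678, 0.476 and 0.349 RPKM in Col-0 and hy5-215 roots and 6.21, 6.47 and 7.18 and 2.41, 2.49 and 2.37 RPKM in shoots. Its effects were -5.25 and -1.15.

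Other steps fell almost entirely in roots. F3H, flavanone 3-hydroxylase, fell from 96.8, 99.4 and 94.1 to 2.21, 1.76 and 1.98 RPKM in roots, and in shoots from 11.6, 12 and 11.8 to 10.1, 10.2 and 10.8 RPKM. Its shoot effect of -0.17 was called (adjusted p = 0.0101) but was a small fraction of the root effect of -5.04. Chalcone isomerase, CHI, fell from 27.3, 28.9 and 33.5 to 1.19, 1.04 and 1.35 RPKM in roots, and was at 13.4, 13.3 and 12.9 RPKM in Col-0 shoots and 12.3, 13.2 and 13.1 RPKM in hy5-215 shoots. The CHI libraries of both genotypes overlapped in shoots, where its effect was -0.04 ± 0.07 (SE), against -3.81 in roots. CHIL, the chalcone isomerase-like protein, and F3'H, the flavonoid 3'-hydroxylase, were also root only, with root effects of -3.59 and -2.02. The glycosyltransferase UGT78D2 had effects of -2.95 and -0.22, and 4CL3, a CoA ligase that feeds the pathway, -1.88 and -0.54. MYB12, the activator of flavonol genes, fell from 4.1, 3.82 and 3.69 to 0.154, 0.102 and 0.0799 RPKM in roots, and in shoots from 0.206, 0.209 and 0.176 to 0.0339, 0.0168 and 0.0204 RPKM, where its low level keeps the effect at -0.23.

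**Figure D3:**
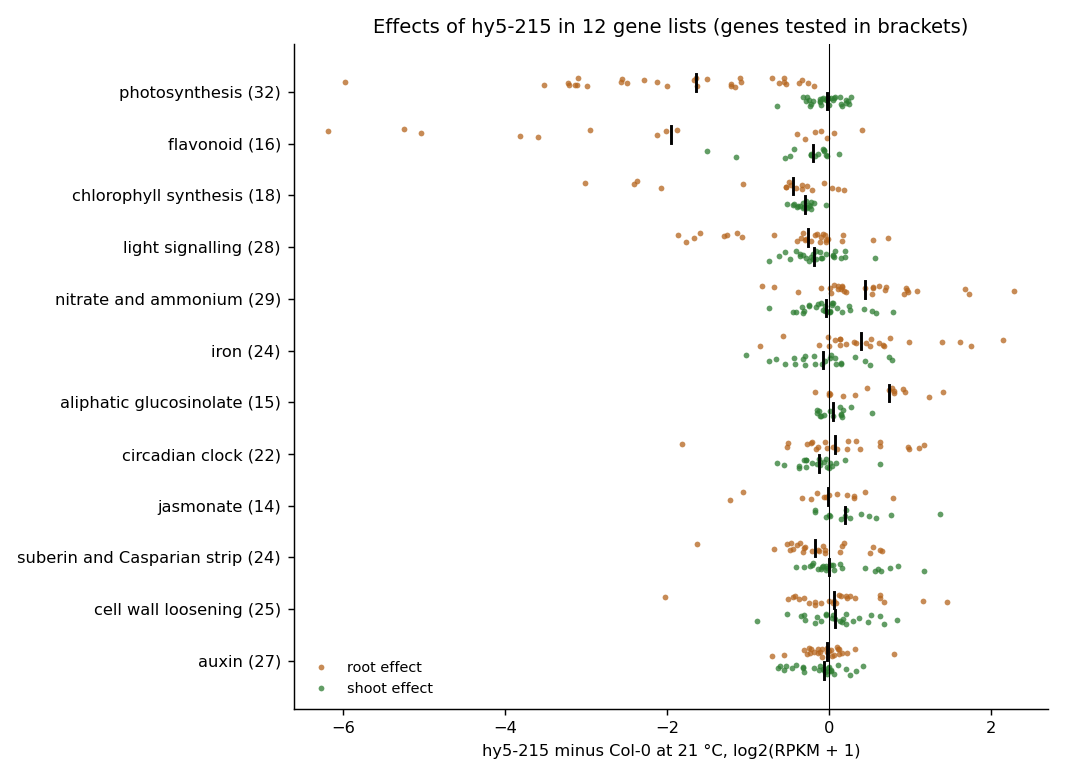
Root effects (brown) and shoot effects (green) of hy5-215 at 21 °C on the log2(RPKM + 1) scale for the tested members of 12 gene lists, with 1 point a gene and black bars at the medians. The photosynthesis and flavonoid lists lie far to the left in roots, at medians of -1.64 and -1.95, and near 0 in shoots, at -0.03 and -0.20.

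Many nitrate and ammonium genes rose in hy5-215 roots, and the reductase genes among them fell in hy5-215 shoots. Of 29 nitrate and ammonium genes tested, 18 had a called increase in roots and 3 a decrease (26.8% and 21.7% of all genes), while in shoots 6 rose and 8 fell (22.9% and 29.5% of all genes). The medians were 0.44 in roots and -0.04 in shoots. The organ difference was called for 6 genes, all more positive in roots, and 3 of these were the reductases themselves. The nitrate reductase gene NIA1 was at 12.8, 13.7 and 19.7 RPKM in Col-0 roots and 45.4, 44.6 and 71.1 RPKM in hy5-215 roots. In shoots NIA1 was at 246, 243 and 237 RPKM in Col-0 and 141, 148 and 144 RPKM in hy5-215. It was thus higher in every mutant root library and lower in every mutant shoot library, with effects of 1.73 and -0.74 (organ difference 2.47 ± 0.23, adjusted p = 4.76e-06). The other nitrate reductase gene, NIA2, rose in roots from 50.7, 52.2 and 56.2 to 83.6, 85.3 and 89.6 RPKM and fell in shoots from 524, 513 and 509 to 361, 393 and 384 RPKM. NIR1, the nitrite reductase, rose in roots from 84, 91.9 and 96.5 to 186, 189 and 208 RPKM and fell in shoots from 238, 237 and 236 to 200.1, 203 and 197 RPKM. Neither gene overlapped between genotypes in either organ, and the organ differences were 1.13 ± 0.06 for NIA2 and 1.33 ± 0.07 for NIR1 (adjusted p = 4.15e-08 and 3.25e-08).

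The other 3 nitrate genes were root only. UPM1, which makes the sirohaem cofactor of nitrite reductase, rose in roots from 28.9, 28.6 and 29.4 to 55.9, 56.8 and 62.1 RPKM and had a shoot effect of -0.05 ± 0.04. Its organ difference of 1.04 lay just above 1 and was 0.99 without hy5-215 root replicate 3 and under median-of-ratios scaling. NRT1.8, which takes nitrate out of the xylem, was at 1.55, 1.2 and 0.922 RPKM in Col-0 roots and 12.9, 13.8 and 5.08 RPKM in hy5-215 roots. ASN1, an asparagine synthetase, was at 4.5, 1.54 and 2.89 RPKM in Col-0 roots and 17.6, 17.9 and 4.08 RPKM in hy5-215 roots. For both genes the third hy5-215 root library was much lower than the first and the second, and for ASN1 it lay within the Col-0 range. The organ differences were 2.24 ± 0.36 for NRT1.8 and 1.99 ± 0.57 for ASN1. They were 2.65 and 2.62 without that library, and 2.01 and 1.68 without hy5-215 root replicate 2. The highest adjusted p of ASN1 in limma with any 1 library left out was 0.0322. With limma voom on the reads the NRT1.8 difference was 2.79 with an adjusted p of 0.123. Among genes without an organ difference above 1, GLN1;2, a cytosolic glutamine synthetase, had effects of 0.96 and 0.25, and the ammonium transporter AMT1;1 -0.83 and 0.10. NRT1.1, the nitrate transporter and sensor, was at 70.9, 78.2 and 78 RPKM in Col-0 roots and 74.8, 73.9 and 98.7 RPKM in hy5-215 roots, with effects of 0.11 and 0.01 and an organ difference of 0.10 ± 0.12 that was not called (adjusted p = 0.504).

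Iron regulators also split by organ. Of 24 iron genes tested, 15 rose and 3 fell in roots (26.8% and 21.7% of all genes), while 4 rose and 10 fell in shoots (22.9% and 29.5% of all genes), with medians of 0.40 and -0.07, and 7 had a called organ difference. BHLH38, BHLH39 and BHLH100 encode bHLH partners of FIT in the iron deficiency response. BHLH38 was at 2.93, 2.89 and 1.36 RPKM in Col-0 roots and 13.6, 13.6 and 13.8 RPKM in hy5-215 roots, and at 1.9, 2.04 and 1.84 and 0.94, 0.713 and 0.606 RPKM in shoots of Col-0 and hy5-215. BHLH39 rose in roots from 9.3, 9.0 and 5.46 to 31.4, 29.5 and 24.9 RPKM and fell in shoots from 3.39, 3.18 and 3.09 to 2.01, 1.88 and 1.81 RPKM. BHLH100 rose in roots from 2.02, 2.46 and 1.81 to 6.17, 6.54 and 8.78 RPKM and fell in shoots from 4.49, 4.03 and 3.94 to 1.45, 1.63 and 1.54 RPKM. All 3 were higher in every mutant root library and lower in every mutant shoot library, with organ differences of 2.89 ± 0.21, 2.3 ± 0.20 and 2.41 ± 0.15 (adjusted p = 5.44e-07, 2.44e-06 and 1.02e-07).

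Genes that signal or store iron followed or mirrored them. OPT3, which loads iron into the phloem, rose in roots from 8.11, 7.47 and 5.39 to 23.6, 22.9 and 23.2 RPKM and fell in shoots from 42.9, 41.9 and 40.9 to 31.4, 35.6 and 35.3 RPKM. BTS, a ubiquitin ligase that restrains the iron deficiency response, had effects of 0.68 and -0.42. The ferritin gene FER4 had the reverse pattern, with 10.2, 9.75 and 9.8 and 6.02, 6.49 and 6.64 RPKM in Col-0 and hy5-215 roots and 15.5, 16.2 and 16 and 23.6, 22.5 and 22.8 RPKM in shoots. FER4 was lower in every mutant root library and higher in every mutant shoot library, with an organ difference of -1.07 ± 0.05. F6'H1, which makes iron-mobilising coumarins, was root only, with a root effect of 0.98. The uptake genes themselves gave no called organ difference: IRT1, the main iron transporter of the root surface, was at 111, 107 and 101 RPKM in Col-0 roots and 132, 138 and 263 RPKM in hy5-215 roots, and FRO2, the ferric reductase, at 20.3, 20.9 and 18.1 and 17, 17.2 and 35.3 RPKM. For IRT1 and FRO2 the third hy5-215 root library stood above the first and the second. The 7 calls of the list were the same in number without that library.

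**Figure D4:**
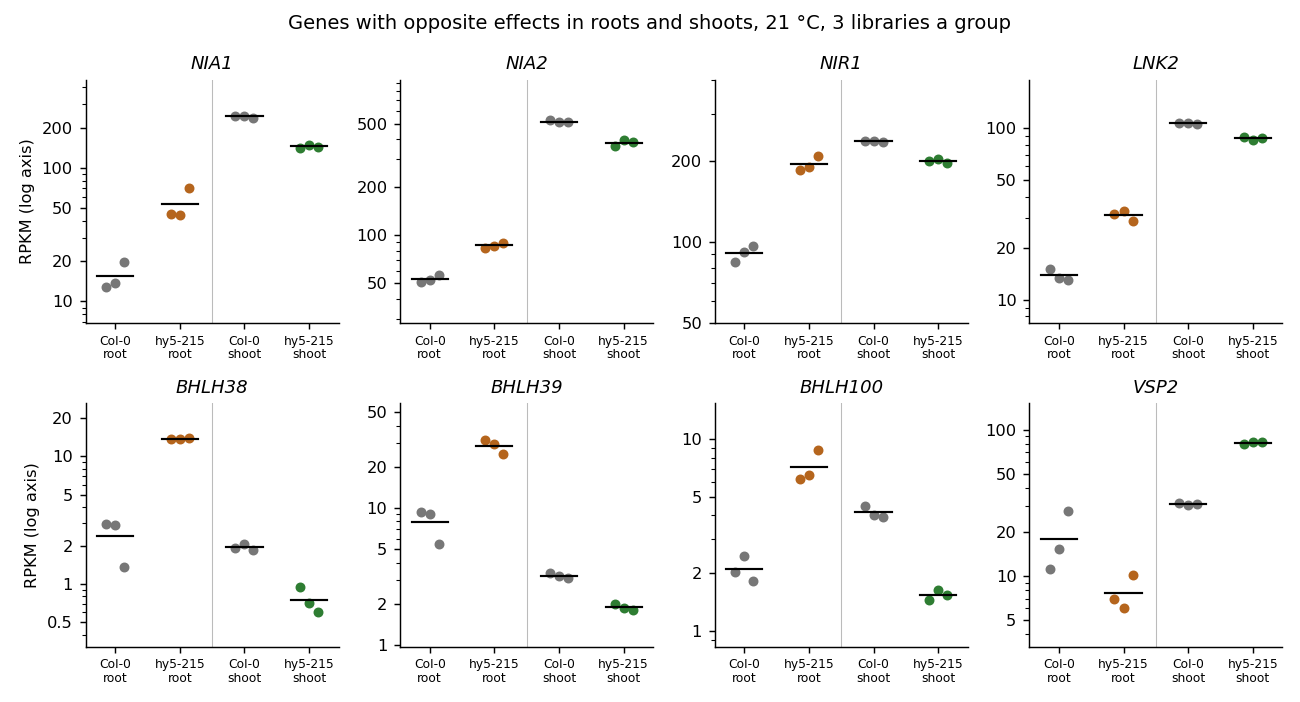
RPKM (log axes) of 8 genes of the opposite class in each of the 12 libraries, with points for libraries and lines for group means. NIA1, NIA2, NIR1, LNK2, BHLH38, BHLH39 and BHLH100 were higher in all hy5-215 roots and lower in all hy5-215 shoots than in Col-0, and VSP2 was lower in roots and higher in shoots.

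Clock genes with morning expression were part of the opposite class. Of 22 clock genes tested, 5 were organ dependent (2.62% of all genes), 4 more positive and 1 more negative in roots. In roots 9 had a called increase and 8 a decrease (26.8% and 21.7% of all genes). In shoots 2 rose and 11 fell (22.9% and 29.5% of all genes). LHY, a morning MYB factor, was at 1.26, 1.19 and 1.1 RPKM in Col-0 roots and 3.08, 3.18 and 3.69 RPKM in hy5-215 roots, and at 7.39, 7.76 and 7.94 and 5.01, 4.39 and 4.39 RPKM in shoots of Col-0 and hy5-215. LNK2, a coactivator of the REVEILLE factors, rose in roots from 15.1, 13.4 and 13 to 31.5, 33.1 and 28.7 RPKM and fell in shoots from 108, 107 and 106 to 88.6, 85.1 and 88.2 RPKM. CDF1, a repressor of the photoperiod pathway, had effects of 1.18 and -0.28. LHY, LNK2 and CDF1 did not overlap between genotypes in either organ, with organ differences of 1.62 ± 0.08, 1.4 ± 0.08 and 1.46 ± 0.07. RVE8 was root only, with effects of 0.97 and -0.11. ELF4, a component of the evening complex, fell in roots from 27.7, 24.4 and 28.8 to 6.94, 6.4 and 7.56 RPKM and in shoots from 1.68, 1.5 and 1.96 to 0.652, 1.02 and 0.889 RPKM. Its organ difference of -1.26 was not above 1 in size when 0.1 replaced the added 1, and was -0.95 in limma voom. CCA1, the partner of LHY, had effects of 0.62 and -0.15 with a difference of 1 or below. The list medians were 0.08 in roots and -0.12 in shoots. The time of day of collection is not given in the sources used here.

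The vegetative storage protein genes VSP1 and VSP2, which respond to jasmonate, moved the other way. VSP2 was at 11.1, 15.2 and 27.6 RPKM in Col-0 roots and 6.92, 5.99 and 10.1 RPKM in hy5-215 roots, and at 31.3, 30.7 and 30.8 and 79.5, 82.8 and 82 RPKM in shoots of Col-0 and hy5-215. VSP1 fell in roots from 39.7, 40 and 78.8 to 19.4, 18.4 and 25.6 RPKM and rose in shoots from 12.8, 12.5 and 12.8 to 22.3, 22.8 and 22.1 RPKM. Root libraries of both genotypes did not overlap, although the third Col-0 root library was well above the first and the second for both genes. The organ differences were -2.43 ± 0.34 and -1.99 ± 0.29 (adjusted p = 0.000117 and 0.000147), and stayed at -2.08 and -1.67 without that library. VSP1 and VSP2 are close copies, between which reads may have been split. No other gene of the 14 jasmonate genes tested had a called organ difference.

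Several little-annotated genes led the opposite class. AT1G13609 had the most positive organ difference of all genes tested, 4.25 ± 0.28 (adjusted p = 2.19e-07). It was at 0.30, 0.369 and 0.233 RPKM in Col-0 roots and 11, 9.3 and 5.52 RPKM in hy5-215 roots, and at 19.1, 21.27 and 26.5 and 9.86, 6.34 and 7.27 RPKM in shoots of Col-0 and hy5-215. In Col-0 the transcript was far higher in shoots than in roots, whereas in hy5-215 the ranges of both organs overlapped. AT2G14247 rose in roots from 2.25, 2.04 and 1.54 to 16.5, 15.1 and 15.3 RPKM and fell in shoots from 6.86, 7.28 and 7.6 to 3.69, 3.3 and 3.33 RPKM. AT2G04050 and AT2G33850 also rose in roots, with effects of 2.08 and 0.99, and fell in shoots, with -0.44 and -1.29. In the reverse direction, the methyl esterase gene MES9 had effects of -2.44 and 0.19, AT2G26500 -2.08 and 0.44, and AT3G63540 -2.22 and 0.20.

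Aliphatic glucosinolate synthesis rose in roots. Of 15 genes tested, 10 had a called increase and 1 a decrease in roots (26.8% and 21.7% of all genes), while 3 rose and none fell in shoots (22.9% and 29.5% of all genes), with medians of 0.75 and 0.05. The organ difference was called for 3. BCAT4, which starts methionine chain elongation, was at 1.72, 0.894 and 0.892 RPKM in Col-0 roots and 4.21, 4.66 and 5.2 RPKM in hy5-215 roots, with a shoot effect of -0.14 at a mean of 23.4 RPKM in Col-0 shoots. CYP83A1, a cytochrome P450 of the core pathway, rose in roots from 5.61, 3.69 and 3.31 to 10.6, 10.9 and 11.7 RPKM, and IPMI2, an isopropylmalate isomerase subunit, from 12.6, 9.28 and 8.48 to 18.4, 19.3 and 23 RPKM. The first Col-0 root library was the highest of its group for all 3 genes and still lay below the mutant libraries. The organ differences were 1.55 ± 0.16, 1.09 ± 0.16 and 1.07 ± 0.16, and those of CYP83A1 and IPMI2 were 0.97 and 0.96 without Col-0 root replicate 3, that of IPMI2 also 0.98 without hy5-215 root replicate 3. Of 13 indolic glucosinolate genes none was organ dependent, and 7 fell and none rose in roots, where 21.7% of all genes fell and 26.8% rose.

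Other root-only genes reached larger sizes. EARLI1, a lipid transfer-like protein gene, was at 21.18, 12.4 and 9.21 RPKM in Col-0 roots and 95.1, 93.5 and 105 RPKM in hy5-215 roots. In shoots EARLI1 was at 17.5, 16.5 and 16.4 RPKM in Col-0 and 13.6, 12.9 and 13.7 RPKM in hy5-215. Its shoot effect of -0.31 missed the test, although the shoot libraries did not overlap. The SE of 0.19 is pooled over roots and shoots and is the same for both organs. The organ difference of EARLI1 was 3.07 ± 0.27 (adjusted p = 2.96e-06). LTP6, a lipid transfer protein gene, rose in roots from 4.95, 4.02 and 4.73 to 14.9, 15.9 and 11.5 RPKM, beside a shoot effect of -0.06. AT4G08555, AT2G18193 and AT1G21520 had root effects of 1.66, 1.56 and 1.63 and shoot effects of -0.00, -0.02 and 0.23. Among the genes that fell, AT3G52740 was at 21.9, 19.3 and 18.7 RPKM in Col-0 roots, 0.425, 0.37 and 0.378 RPKM in hy5-215 roots, and 9.84, 10.9 and 10.3 and 10.2, 9.9 and 9.22 RPKM in shoots of Col-0 and hy5-215. ABCI21, an ATP-binding cassette protein gene, fell in roots from 45.8, 46.3 and 41.5 to 2.69, 2.44 and 2.91 RPKM. Both genes overlapped between genotypes in shoots, with shoot effects of -0.08 ± 0.06 and 0.06 ± 0.07. Of 25 cell wall loosening genes 2 were organ dependent, and of 24 suberin and Casparian strip genes 2 were, against 2.62% of all genes. Of the first, the xyloglucan-modifying XTH31 fell in roots from 85.5, 62.1 and 68.3 to 16.3, 14.6 and 19.9 RPKM. Of the second, CASP5 fell in roots from 9.83, 13.8 and 13.3 to 3.6, 3.5 and 2.77 RPKM.

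Shoot-only genes were few, and part of them were root genes. Among the 22, 6 averaged 1 RPKM or more in each organ, all higher in hy5-215 shoots, and 5 of these had root levels more than 10 times their shoot levels. BGLU21, a beta-glucosidase gene of roots, was at 4.16, 4.55 and 4.46 RPKM in Col-0 shoots and 16.3, 16.2 and 15.2 RPKM in hy5-215 shoots, and at 258, 295 and 260.3 and 272, 271 and 251 RPKM in roots of Col-0 and hy5-215. CASP1, which scaffolds the Casparian strip of the root endodermis, was at 3.93, 4.04 and 4.29 RPKM in Col-0 shoots and 9.88, 10.5 and 11.1 RPKM in hy5-215 shoots, and at 139, 147 and 154 and 169.8, 163 and 151 RPKM in roots of Col-0 and hy5-215. UCC1, AT5G62340 and AT4G13580 had shoot effects of 1.01, 1.28 and 1.02 and root effects of -0.05, -0.09 and -0.06. All 5 were named by a rule that required shoot libraries without overlap and no called root effect, so neither trait is a further result. The organ difference of CASP1 was -1.04, and lay just below 1 in size without hy5-215 root replicate 3.

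Markers of root tissue were also higher in sum in these shoot libraries. The 12 root markers, of which CASP1 is one, summed to 19.1 to 19.5 RPKM in Col-0 shoots and 27.6 to 28.8 RPKM in hy5-215 shoots. CASP1 alone averaged 4.09 RPKM in Col-0 shoots and 10.5 RPKM in hy5-215 shoots, and was already selected for that rise. Much of the higher sum is therefore not separate from the shoot-only calls. With CASP1 counted, 8 of 12 markers were higher in all mutant shoot libraries, against 28.6% of all genes tested. The root meristem factors PLT1 and PLT2, the root hair factor RHD6 and the endodermis factor MYB36 were 2.43 to 2.68 times higher in hy5-215 shoots. Other markers of the root meristem and root hairs overlapped between the genotypes there, with WOX5 at 0.89 times and COBL9 and RHD2 at 1.16 times. SHR was lower at 0.797 times. In Col-0 shoots 3 of the 12 markers were under 0.25 RPKM in all libraries. The median marker stood at 3.03% of its root level in Col-0 shoots and 5.28% in hy5-215 shoots. The part of root tissue in the shoot-only calls was not tested. Of all 98 shoot-only and opposite genes that were higher in hy5-215 shoots, 8 had root levels more than 10 times their shoot levels. When genes more than 10 times higher in roots were left out, an alternative chosen after the data were seen, 17 shoot-only and 115 opposite genes were found.

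Genes with under 1 RPKM in roots made up the rest of the shoot-only class. AT5G42530 was at 28.8, 29.3 and 29.2 RPKM in Col-0 shoots and 137, 126 and 130.4 RPKM in hy5-215 shoots. COR15A, a cold-induced chloroplast protein gene, rose in shoots from 24.2, 24.1 and 23.4 to 56.3, 57.7 and 54 RPKM, and ZAT7, a zinc finger factor gene, from 6.8, 6.19 and 6.51 to 15.4, 15.4 and 14.8 RPKM. All 3 were at or below 0.117 RPKM in every root library, a level at which the added 1 hides most of a root effect. The root libraries of ZAT7 did not overlap, at 0.0554, 0.0545 and 0.047 RPKM in Col-0 and 0.0258, 0.0145 and 0.0137 RPKM in hy5-215. Of the 4 shoot-only genes that fell, MBP1, a myrosinase-binding protein gene, had a shoot effect of -1.82 and GPX7, a glutathione peroxidase gene, one of -1.03.

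For genes with little transcript in 1 organ, the call depended on the scale. AT2G36255 rose in roots from 0.93, 1.29 and 1.74 to 99.4, 93.2 and 118 RPKM, and in shoots from 0.0405, 0 and 0.0645 to 2.45, 2.0 and 1.9 RPKM. AT1G34047 rose in roots from 3.2, 2.42 and 3.56 to 153, 154 and 178 RPKM, and in shoots from 0.0871, 0.018 and 0.0555 to 2.62, 2.35 and 2.09 RPKM. Both genes were higher in every mutant library of both organs, and the ratios of the group means were 78.6 in roots and 60.5 in shoots for AT2G36255 and 52.8 and 43.9 for AT1G34047. Their organ differences of 3.92 ± 0.16 and 3.66 ± 0.14 on the log2(RPKM + 1) scale were 0.35 and 0.31 with limma voom on the reads (adjusted p = 0.761 and 0.716). The root-only calls of AT4G33720, AT1G49570, CYP710A4 and AT4G31470, all below 1 RPKM in shoots, and the shoot-only call of AT5G42530 were also lost with limma voom (adjusted p between 0.0906 and 0.721). The organ difference of AT4G31470 was also -0.90 when 0.1 replaced the added 1, and -0.97 without hy5-215 root replicate 3. AT4G33720 was at 5.2, 4.6 and 1.64 RPKM in Col-0 roots and 57.4, 63.2 and 28.7 RPKM in hy5-215 roots, with a root effect of 3.42. Where both organs held at least 1 RPKM, 363 of the 373 organ-dependent genes whose reads could be recovered were called with the same sign by limma voom, and 372 had the same sign.

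No gene had a called organ difference above 1 in the lists for auxin (27 genes tested), root hair (14), indolic glucosinolate (13), phosphate (10), cytokinin response (8), sugar transport and starvation (8), sulfate (5) and salicylic acid defence (1). Organ differences in these lists ran from -0.81 to 0.90. In the auxin list 5 genes rose and 9 fell in roots (26.8% and 21.7% of all genes), and 4 rose and 11 fell in shoots (22.9% and 29.5% of all genes), with medians of -0.02 and -0.06. In the root hair list 8 of 14 genes fell in roots (21.7% of all genes), with a median of -0.19.

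The 12 libraries at 28 °C, which played no part in the calls at 21 °C, were fitted in the same way. There the organ difference was called for 872 of 18185 genes (4.80%), with 1.75% more positive and 3.05% more negative in roots. Of the 311 genes that were more negative in roots at 21 °C, 300 were tested at 28 °C, 297 had the same sign and 231 (77.0%) were called with it. Of the 162 more positive ones, 140 were tested, 132 had the same sign and 74 (52.9%) were called with it. The photosynthesis list reached medians of -2.96 in roots and -0.20 in shoots, with 26 of 32 genes called, and LHB1B2 had an organ difference of -5.76. The flavonoid list had a median difference of -2.35, with 10 of 15 genes called. The aliphatic glucosinolate list rose further, with a median difference of 2.17 and 9 of 15 genes called more positive in roots.

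A minority of the opposite genes were opposite again at 28 °C. NIA1 kept a difference of 2.9, but its shoot effect was 0.18 and no longer negative. BHLH39 had effects of 1.05 in roots and 0.04 in shoots, and LNK2 a difference of 0.12. None of the genes above 1 in both organs at 21 °C was opposite again. Root and shoot effects at 28 °C were 2.78 and -0.17 (shoot not called) for AT1G13609, 1.42 and 0.46 for BHLH100, and 0.99 and 1.82 for VSP2. HY5 fell in both organs at 28 °C, with effects of -2.47 and -0.55. Of the 38 opposite genes that were more positive in roots at 21 °C and tested at 28 °C, 8 were again opposite, and of 80 more negative ones 21 were. The shoot-only rises of CASP1, AT5G62340 and AT4G13580 had shoot effects of 0.01, 0.03 and -0.04 at 28 °C, and those of BGLU21 and UCC1 0.83 and 0.23. The root effect of BGLU21 at 28 °C was also 0.83, and its organ difference there was not called (limma, adjusted p = 0.994). COR15A and AT5G42530 had shoot effects of 1.69 and 0.80 at 28 °C. In a fit over the 24 libraries of both temperatures, the organ difference changed by more than 1 between temperatures for 389 of 18180 genes (2.14%), among them 88 of the 468 organ-dependent genes tested. NRT1.1 had an organ difference of 1.02 at 28 °C, with a root effect of 1.34. Growth temperature is the labelled difference between these sets of libraries, and 28 °C is not a repeat of the 21 °C condition.

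**Figure D5:**
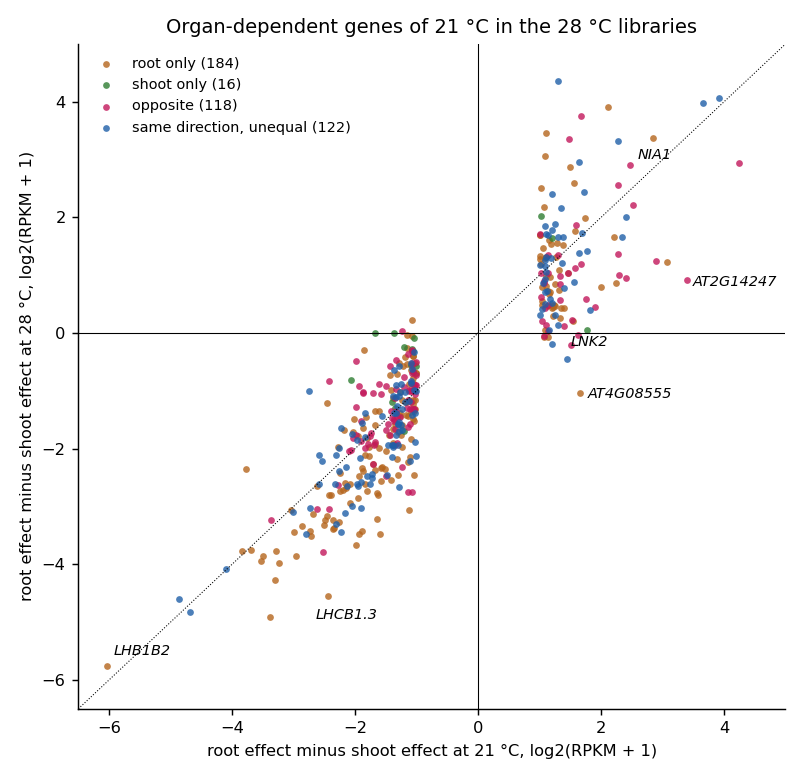
Organ difference (root effect minus shoot effect, log2(RPKM + 1)) at 21 °C and at 28 °C for the 440 organ-dependent genes of 21 °C that were tested at both temperatures, coloured by their class at 21 °C, with the dotted line where both are equal. Of these, 429 had the same sign at 28 °C.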

How the data were processed

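RNA from roots and shoots was sequenced, and the submitters' processing notes name STAR 2.7.0a, edgeR 3.36.0 and TAIR10, and the authors deposited RPKM per gene. The counting tool and annotation release are not given in the sources used here. The deposited RPKM equal whole reads at the gene spans of the TAIR10.1 annotation (introns included) for 99.9% of values above 0, within 0.01 read, so the unit of length is the span. Every sample column of the matrix (24532 genes) was matched to a label.

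Values were log2(RPKM + 1), filtered at a mean of 1 RPKM over the 12 libraries and fitted with 4 group means in limma 3.58.1 (R 4.3.3, eBayes with trend), with Benjamini-Hochberg adjustment over all genes tested in each contrast. p-values rest on 1 spread per gene, pooled over the 3 replicates of all 4 groups and moderated across genes. A gene therefore has the same SE in both organs, and scatter between root libraries also enters the call of its shoot effect. The fit was tested on simulated data. Tables and figures used Python 3.11.15, pandas 2.3.3, numpy 2.4.6 and matplotlib 3.10.9.

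Named genes were HY5, HYH and NRT1.1, then the genes with the largest organ difference in each class and direction that averaged 5 RPKM or more, first those at 1 RPKM or more in each organ and without overlap of the genotypes (6 for root only, shoot only and opposite, 2 for the same direction), then the 3 largest below 1 RPKM in the other organ, and members of 19 gene lists. Other genes named (LHB1B1, MBP1 and GPX7 among them) were chosen after their values were seen, as list members or to complete a small class. Members, lists and tests were chosen with earlier results of these data known. List members were left out where the reference does not pair name and locus (12) or the matrix does not hold them (5). Promoter motifs were not analysed here.

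Alternatives were pseudocounts of 0.1 and 0.5, other filters, median-of-ratios and quantile scaling within organs, no trend, array weights, a fit over all 36 libraries, limma voom on the recovered reads, a replicate block, each replicate left out, and other size limits.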

Additional observations from a re-analysis of the deposited data

Results flagged for a closer look

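The difference between the organs is the comparison of the report, and it was called with a size above 1 for 473 genes by the contrast of root and shoot effects in limma. Between 21 °C and 28 °C the organ difference itself changed by more than 1 for 389 genes (limma, adjusted p under 0.05). HOL2, a glucosinolate-related methyltransferase gene, had the most negative change, from an organ difference of 0.30 at 21 °C to -2.98 at 28 °C (change -3.28). The organ difference of AT4G08555 went from 1.66 to -1.03.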

How the results depend on the processing

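The added 1 shrinks effects of genes near or below 1 RPKM, and every group has 3 replicates. The 473 organ-dependent genes split into 198 root only, 22 shoot only, 119 opposite and 134 in the same direction. With a pseudocount of 0.1 they became 836, with 382 root only, 74 shoot only and 193 opposite, and 453 of the 473 were still called. With limma voom on the reads there were 978, with 331, 99, 284 and 260 in the 4 classes, and 410 of 472 were still called with the same sign. At 1 RPKM or more in each organ these settings called 529 and 549 genes, against 374, and the cause was not tested. At least 5 RPKM left 10 shoot-only genes and at least 1 RPKM in each organ 6, by fewer genes tested. At any size of difference 9200 genes were called, with 2851 root only, 3437 shoot only, 1435 opposite and 1217 in the same direction. With organ effects required to exceed 1, there were 533 root effects, 97 shoot effects, 346 root-only genes, 3 opposite and 15 in the same direction. Without any 1 replicate, organ-dependent genes ranged from 462 to 484, root only from 181 to 240, shoot only from 19 to 24, opposite from 94 to 135, same direction from 114 to 151, root effects from 7406 to 9040 and shoot effects from 8029 to 10008. Of 1071 values of 45 named genes under alternatives 10 lost the call, 7 of them with limma voom, and 1 turned its direction, that of NRT1.1, which had no called difference and ranged from -0.0321 (without hy5-215 root replicate 3) to 0.174 without any 1 replicate. All 1569 values of the 66 organ-dependent list genes had the same sign, with 1560 still called. Leaving out genes more than 10 times higher in roots, chosen after the data were seen, gave 405 organ-dependent genes, 164 of them root only.

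The main fit did not pair libraries of equal replicate number. Their deviations from the group means correlated at -0.41 to 0.34, with 3 of 12 pairs over 0.1. These were the Col-0 and hy5-215 roots of replicate 3 (0.34) and replicate 1 (0.17), and root and shoot of hy5-215 replicate 1 (0.29). Such correlations cannot show whether the samples were paired. With the replicate block there were 473 organ-dependent genes, 181 root only, 23 shoot only, 128 opposite, 141 in the same direction, 8414 root effects and 9273 shoot effects.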

Other observations

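Of the 473 organ-dependent genes, 407 belong to none of the 19 gene lists. Among the shoot-only genes not described above, chosen here after their values were seen, ECS1 rose in shoots from 245, 259.5 and 298 to 724, 607 and 655 RPKM and was at 0.014, 0.0963 and 0.0237 RPKM in Col-0 roots and 0.378, 0.337 and 0.0277 RPKM in hy5-215 roots. SAG29, also known as the sugar transporter SWEET15, rose in shoots from 3.84, 4.17 and 4.01 to 12.4, 12 and 12.3 RPKM, with a shoot effect of 1.4 at 21 °C and 1.28 at 28 °C. PCC1, a gene named for control by pathogens and the clock, was at 0.549, 0.579 and 0.36 RPKM in Col-0 shoots and 7.29, 7.15 and 7.8 RPKM in hy5-215 shoots. In all 3 genes every hy5-215 shoot library was above every Col-0 shoot library.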
